A study of Mus musculus with 6 samples.

Results

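The 10 genes described here carry out and control antigen presentation by MHC class II. They were chosen by name from the 55487 genes listed in RNA-seq counts of mouse colonic epithelium, and for each symbol 1 row was found. They comprise the chains H2-Aa, H2-Ab1 and H2-Eb1, the invariant chain Cd74, the peptide exchange factor subunits H2-DMa and H2-DMb1, the endosomal enzymes Ctss and Ifi30, and the regulators Ciita and Rfx5. All 10 passed the filter on low counts, which kept 14650 genes for testing.

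The study asked what is altered in the injured colonic epithelium when NSD2, a histone methyltransferase, is lost. Intestinal epithelial cells (IECs) were taken from the colon of C57BL/6J mice that were 2 months old when given 2% dextran sodium sulphate (DSS), an agent that injures the epithelium and causes colitis. One group was Nsd2 f/f, with both alleles of Nsd2 flanked by loxP sites and no Cre (labelled WT, n = 3), and the other was Nsd2 Vil-KO (labelled NSD2-FF-VILCRE, n = 3), in which Villin-driven Cre deletes Nsd2 in cells of the intestinal epithelium but not in the other cell types of the gut. Both groups received DSS and no untreated library was analysed here. The IECs were released with EDTA and shaking and were not described as sorted, and the day of collection for RNA-seq was not given in the sources used here. Nothing in the labels says whether each library came from 1 animal, so the tests measure the spread between these libraries.

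MHC class II molecules are heterodimers of an alpha and a beta chain that show peptides from endocytosed proteins to CD4+ T cells. New dimers travel to endosomes bound to the invariant chain, proteases cut this chain down to a short fragment in the groove, and H2-DM exchanges the fragment for antigenic peptide. Dendritic cells and B cells make class II constitutively, whereas intestinal epithelium makes it under inflammation, mainly through interferon-gamma and IRF1, which switch on the transactivator Ciita. CIITA does not bind DNA itself but is held by factors on the X and Y boxes of class II promoters, among them the RFX complex with RFX5 and the NF-Y complex.

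The promoters of members that hold the X and Y box cores are shown first, as background to how CIITA acts on these genes. A RefSeq promoter window on GRCm38.p6, from 250 bases before to 50 bases after an annotated start, was found for 7 of the 10 genes, and H2-Ab1, Cd74 and Ciita were not among them. The windows were searched on both strands for an X box core (GNAACT) followed by a Y box core (ATTGG), with 30 to 36 bases between the first bases of the cores. The cores and the spacing were chosen after the sequences had been seen, and neither core overlaps the other at this spacing. The pair was found in 3 of the 7 genes, H2-Aa, H2-Eb1 and H2-DMb1. Of 32851 promoter windows of the same length, 42.8% held the X core and 37.4% the Y core, each counted with or without the other. The pair was held by 0.377% in either orientation. The 3 stretches below run 5′ to 3′ on the strand of the gene, with the X core and then the Y core in capitals.
H2-Aa, chr17:34287863-34287928, minus strand: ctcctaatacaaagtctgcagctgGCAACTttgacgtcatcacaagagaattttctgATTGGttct
H2-Eb1, chr17:34305762-34305827, plus strand: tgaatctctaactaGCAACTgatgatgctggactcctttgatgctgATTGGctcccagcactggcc
H2-DMb1, chr17:34153086-34153151, plus strand: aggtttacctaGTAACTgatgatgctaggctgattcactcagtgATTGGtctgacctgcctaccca

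The X core began 81 bases before the start in H2-Aa, 91 in H2-Eb1 and 94 in H2-DMb1, and the Y core followed after 33, 32 and 33 bases. H2-Eb1 and H2-DMb1 both continue from the X core with the same 9 bases, GATGATGCT, whereas H2-Aa shares 0 bases with either at that point. Among 4 further class II chain genes with a window, H2-Eb2 held the pair, with the X core at 132 bases before the start. H2-DMa has 2 windows, and 1 of them held both cores but not at this spacing. Ctss and Ifi30, the endosomal enzymes, held neither core in their windows, and Rfx5 held only the Y core. A match describes the letters in the window and was not tested as a binding site or against the levels below.

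**Figure D1:**
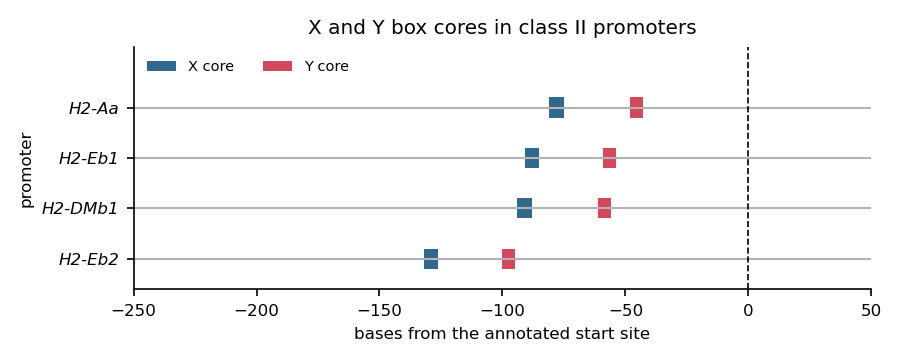
Position of the X core and the Y core in the promoters of H2-Aa, H2-Eb1, H2-DMb1 and H2-Eb2, in bases from the annotated start site (dashed line). In each of the 4 promoters the X core lies upstream and the Y core follows after 32 or 33 bases.

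The libraries held between 15439123 and 20350539 counts, so that 3 counts in 1 library corresponded to between 0.146 and 0.242 CPM (a gene's counts scaled to a common library size with TMM factors). Values for a group are given below in the order of its replicates 1, 2 and 3. Nsd2 stood at 47.9, 51.2 and 24.6 CPM in Nsd2 f/f and at 24.2, 10.4 and 20.8 CPM in Nsd2 Vil-KO. Its groups did not overlap, as for 9.90% of tested genes, but f/f replicate 3 lay next to the highest Vil-KO library. The log2 difference of Nsd2 (Vil-KO minus f/f) was -1.16 (SE 0.39, unadjusted p = 0.0217, adjusted p = 0.992 by edgeR). The library labelled Nsd2 f/f replicate 3 stood apart. Mitochondrial genes took 19.6% of its counts, against 5.51% to 9.13% elsewhere, and 3.87% of tested genes lay more than 4-fold below the median of the 6 libraries there. Nsd2 Vil-KO replicate 2 stood apart too, with 4.46% of genes more than 4-fold below that median. These 2 libraries held Xist transcripts, with 4296 and 3684 counts, against 1 to 5 counts in the other 4. Of the epithelial markers, 10 of 10 were detected in every library, with a summed level of 13974 to 18693 CPM, but single markers moved in the libraries that stood apart. Car1 and Slc26a3, of surface colonocytes, were at 1317 and 1424 CPM in Nsd2 f/f replicate 3, against 112 to 599 and 229 to 686 CPM elsewhere. In Nsd2 Vil-KO replicate 2 the stem cell marker Lgr5 had 2 counts, against 88 to 263 elsewhere, and 6 of 10 epithelial markers were at their lowest. Their part in the class II levels was not tested. The log2 difference of each member is therefore given in all libraries, without Nsd2 f/f replicate 3, and in the 4 libraries without Xist.

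Among the members, 7 of 10 lay more than 4-fold below the median of the libraries in Nsd2 f/f replicate 3, where 3.87% of tested genes did so. None of the 10 did so in any of the other 5 libraries, including Nsd2 Vil-KO replicate 2. The 7 were the chains, Cd74, H2-DMa, H2-DMb1 and Ciita, at log2 distances between -3.10 and -4.77. Ctss and Ifi30 were instead above the median in that library, by 0.61 and 0.62 on the log2 scale, and Rfx5 was at -0.37.

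**Figure D2:**
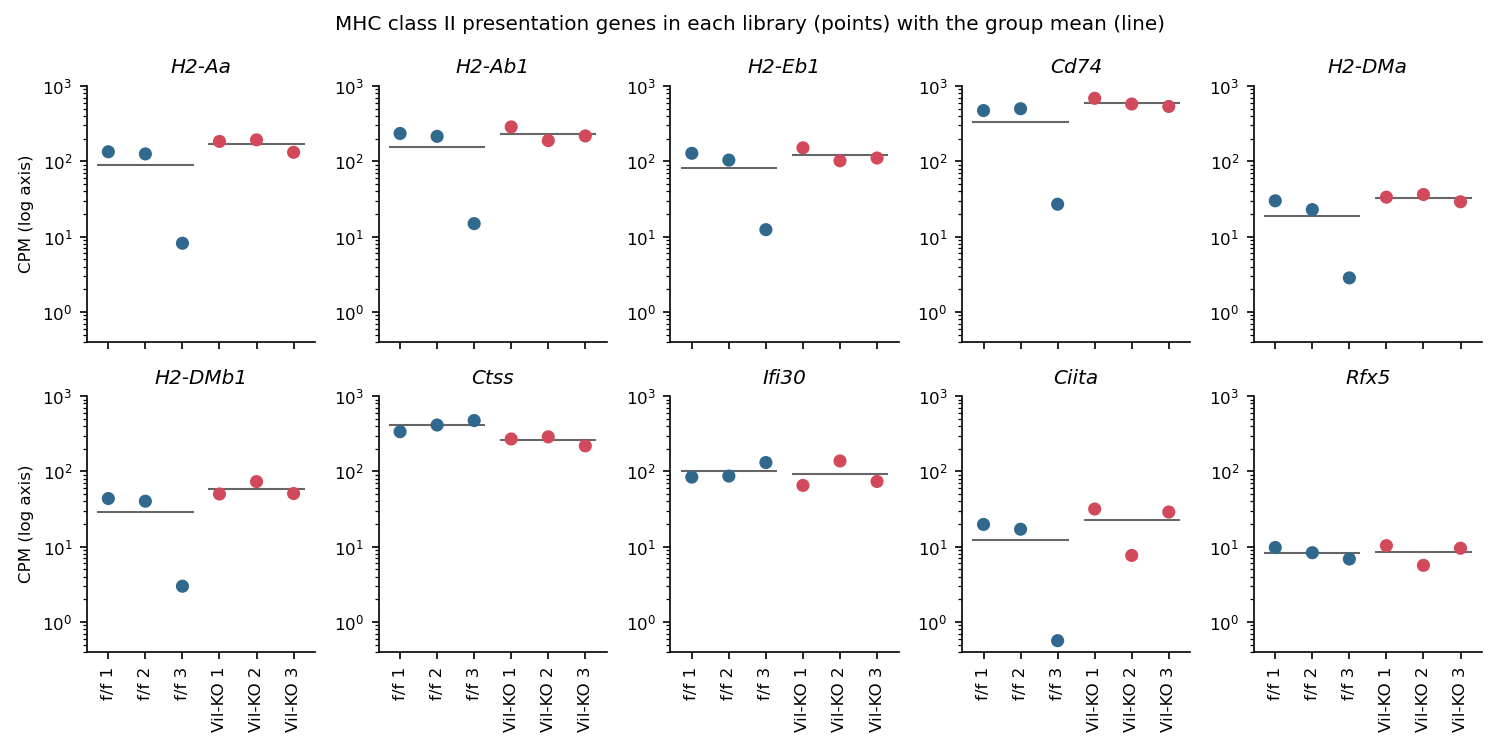
CPM of the 10 genes on a log axis in 3 Nsd2 f/f libraries (blue) and 3 Nsd2 Vil-KO libraries (red), with a line at each group mean. The 3 chains, Cd74, H2-DMa, H2-DMb1 and Ciita are low in Nsd2 f/f replicate 3, by 3.10 to 4.77 on the log2 scale from the median library, while Ctss, Ifi30 and Rfx5 lie within 0.62 of it.

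The chain genes lie together on chromosome 17 (coordinates here are those of GRCm38). H2-Aa, the alpha chain of I-A (17:34282744-34287823, minus strand), stood at 134, 125 and 8.16 CPM in Nsd2 f/f. In Nsd2 Vil-KO it stood at 184, 193 and 132 CPM. Nsd2 f/f replicate 3 was the single low library, and the groups overlapped because Vil-KO replicate 3 fell just below f/f replicate 1. The log2 difference (Vil-KO minus f/f) was 0.92 (SE 0.81, adjusted p = 0.992), and without Nsd2 f/f replicate 3 it was 0.39 (SE 0.23, adjusted p = 0.9998). In the 4 libraries without Xist it was 0.29 (SE 0.17).

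H2-Ab1, the beta chain of I-A (17:34257689-34269419, plus strand), stood at 234, 214 and 14.9 CPM in Nsd2 f/f and at 286, 188 and 217 CPM in Nsd2 Vil-KO. Its groups overlapped, with Vil-KO replicate 2 below f/f replicates 1 and 2. The log2 difference was 0.58 (SE 0.81, adjusted p = 0.993), 0.04 (SE 0.24) without Nsd2 f/f replicate 3 and 0.18 (SE 0.16) in the 4 libraries without Xist. H2-Eb1, the beta chain of I-E (17:34305867-34316674, plus strand), stood at 128, 104 and 12.4 CPM in Nsd2 f/f and at 151, 102 and 111 CPM in Nsd2 Vil-KO. Here too the groups overlapped and the log2 difference shrank from 0.57 (SE 0.70, adjusted p = 0.992) to 0.07 (SE 0.24) without Nsd2 f/f replicate 3, and was 0.19 (SE 0.19) in the 4 libraries without Xist. H2-Ea, which encodes the alpha chain that pairs with H2-Eb1, was listed at 0 in all 6 libraries. As background, C57BL/6 mice carry the b haplotype, in which H2-Ea is not transcribed and no I-E dimer reaches the surface.

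The 2 chains of I-A kept a narrower ratio to each other than the range of their levels. Per kilobase of exon, the ratio of H2-Aa to H2-Ab1 was 0.386, 0.395 and 0.371 in Nsd2 f/f and 0.434, 0.692 and 0.410 in Nsd2 Vil-KO. Nsd2 f/f replicate 3, where both chains were 16.4-fold and 15.8-fold below the highest f/f library, lay close to its group in their ratio, and Vil-KO replicate 2 lay apart. The ratio of H2-Eb1 to H2-Ab1 was 0.720, 0.639 and 1.10 in Nsd2 f/f and 0.697, 0.713 and 0.673 in Nsd2 Vil-KO.

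Cd74, the invariant chain that guides new dimers to endosomes (18:60803848-60812652, plus strand), was the member with the highest median level per length. It stood at 472, 499 and 26.9 CPM in Nsd2 f/f. In Nsd2 Vil-KO it stood at 686, 576 and 535 CPM. The groups did not overlap, with every Vil-KO library above every f/f library. Means were 333 ± 265 CPM in Nsd2 f/f and 599 ± 78.0 CPM in Nsd2 Vil-KO (SD, n = 3 each, exact permutation p = 0.1, two-sided). With 3 libraries against 3 the exact test cannot go below 0.1, and groups did not overlap for 9.90% of tested genes. The log2 difference was 0.85 (SE 0.85, adjusted p = 0.992), 0.31 (SE 0.22) without Nsd2 f/f replicate 3, and 0.34 (SE 0.15, unadjusted p = 0.0558) in the 4 libraries without Xist. Per kilobase, Cd74 was 2.77 to 4.68 times as abundant as H2-Ab1, with the lowest ratio in Nsd2 f/f replicate 3 and the highest in Vil-KO replicate 2.

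H2-DMa, the alpha subunit of the peptide exchange factor (17:34119541-34139101, plus strand), stood at 29.9, 22.8 and 2.83 CPM in Nsd2 f/f and at 33.4, 36.2 and 29.0 CPM in Nsd2 Vil-KO. The groups overlapped by the narrow margin between Vil-KO replicate 3 and f/f replicate 1. Its log2 difference was 0.82 (SE 0.68, adjusted p = 0.992), 0.32 (SE 0.22) without Nsd2 f/f replicate 3 and 0.25 (SE 0.17) in the 4 libraries without Xist. H2-DMa shares 360 exon bases with Brd2 on the opposite strand, and Brd2 stood at 160 CPM in Nsd2 f/f replicate 3 and at 119 to 216 CPM elsewhere. The strand setting of the counts was not given in the sources used here.

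H2-DMb1, the beta subunit (17:34153072-34160230, plus strand), stood at 43.6, 40.2 and 2.99 CPM in Nsd2 f/f and at 50.2, 73.2 and 50.9 CPM in Nsd2 Vil-KO. All 3 Vil-KO libraries lay above all 3 f/f libraries (exact permutation p = 0.1, two-sided, n = 3 each). The log2 difference was 1.00 (SE 0.77, adjusted p = 0.992), 0.47 (SE 0.23) without Nsd2 f/f replicate 3, and 0.28 (SE 0.11, unadjusted p = 0.0457, adjusted p = 0.444) in the 4 libraries without Xist. Its neighbour H2-DMb2, a near copy that can share reads with it, stood at 1.29 CPM in Nsd2 f/f replicate 3 and at 0.111 to 3.01 CPM elsewhere, so H2-DMb2 was not low where H2-DMb1 was. That value rests on only 16 counts. The H2-DMb2 groups did not overlap, as for 9.90% of tested genes, with Nsd2 Vil-KO lower (log2 difference -1.36, SE 0.72, adjusted p = 0.992 by edgeR).

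Ctss, cathepsin S, the protease that makes the last cuts in the invariant chain (3:95526786-95556403, plus strand), behaved differently. It stood at 337, 413 and 474 CPM in Nsd2 f/f and at 269.6, 288 and 218 CPM in Nsd2 Vil-KO. Every Vil-KO library lay below every f/f library, and Nsd2 f/f replicate 3, the lowest for the chains, was the highest for Ctss. Means were 408 ± 68.6 CPM in Nsd2 f/f and 259 ± 36.03 CPM in Nsd2 Vil-KO (SD, n = 3 each, exact permutation p = 0.1, two-sided). Ctss was the 1 member of 10 to pass the screening criterion of a fold change above 1.2 with an unadjusted p below 0.05, which 3.29% of tested genes passed in either direction and 1.65% in the lower direction. Its log2 difference was -0.66 (SE 0.22, unadjusted p = 0.0208, adjusted p = 0.992 by edgeR). The criterion was no longer met without Nsd2 f/f replicate 3 (-0.53, unadjusted p = 0.0532), without Nsd2 f/f replicate 2 (-0.65, unadjusted p = 0.0627) or without Nsd2 Vil-KO replicate 3 (-0.55, unadjusted p = 0.0883). In the 4 libraries without Xist it was met again, with a log2 difference of -0.61 (SE 0.16, unadjusted p = 0.00633, adjusted p = 0.364).

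Because Ctss and the invariant chain moved apart, their proportion varied widely. Ctss per kilobase was 0.883, 1.02 and 21.8 times Cd74 in Nsd2 f/f and 0.486, 0.617 and 0.505 times Cd74 in Nsd2 Vil-KO. Ifi30, the interferon-inducible reductase that opens disulphide bonds of antigens in lysosomes (8:70762774-70766663, minus strand), stood at 84.0, 86.7 and 131 CPM in Nsd2 f/f and at 65.2, 138 and 73.6 CPM in Nsd2 Vil-KO. The highest values were those of Nsd2 f/f replicate 3 and Nsd2 Vil-KO replicate 2, the libraries with Xist, and the groups overlapped. The log2 difference was -0.13 (SE 0.33, adjusted p = 0.996). In the 4 libraries without Xist it was -0.29 (SE 0.11, unadjusted p = 0.0357, adjusted p = 0.432), and without Nsd2 f/f replicate 3 its sign turned, to 0.11 (SE 0.35).

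Ciita, the transactivator on which class II transcription depends (16:10480059-10528418, plus strand), stood at 19.8, 17.1 and 0.566 CPM in Nsd2 f/f and at 31.7, 7.66 and 28.9 CPM in Nsd2 Vil-KO. The lowest value rested on 7 counts, and the groups overlapped through Vil-KO replicate 2. With a 35.0-fold range, Ciita spread more among the Nsd2 f/f libraries than any other member, and 98.9% of tested genes had a smaller range there. The log2 difference was 0.85 (SE 0.97, adjusted p = 0.992) and 0.31 (SE 0.58) without Nsd2 f/f replicate 3. In the 4 libraries without Xist the log2 difference was 0.73 (SE 0.15, unadjusted p = 0.00183, adjusted p = 0.327). With Xist as a covariate it was 1.35 (SE 0.52, unadjusted p = 0.0393, adjusted p = 0.627). Ciita shares 329 exon bases with Dexi on the opposite strand, and Dexi stood at 15.8 CPM in Nsd2 f/f replicate 3 and at 9.76 to 21.9 CPM elsewhere.

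Ciita and the chains did not move in a fixed proportion. For every 1000 counts of the 3 chains there were 39.9, 38.5 and 16.0 counts of Ciita in Nsd2 f/f and 51.0, 15.9 and 63.0 in Nsd2 Vil-KO. Nsd2 Vil-KO replicate 2 thus combined the second lowest Ciita level with chain levels within 1.52-fold of the other Vil-KO libraries. Rfx5, the DNA-binding subunit of the RFX complex (3:94954075-94961561, plus strand), stood at 9.76, 8.33 and 6.87 CPM in Nsd2 f/f and at 10.3, 5.66 and 9.55 CPM in Nsd2 Vil-KO. The groups overlapped fully and the log2 difference was 0.03 (SE 0.33, adjusted p = 0.999), with -0.08 (SE 0.35) without Nsd2 f/f replicate 3 and 0.14 (SE 0.20) in the 4 libraries without Xist. Rfx5 shares 1471 exon bases with an antisense gene, B230398E01Rik.

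Over the 10 members, 1 passed the screening criterion, 0 of 10 passed an adjusted p of 0.05, and 8 had a log2 difference above 0. The 1 in 10 past the criterion stands beside 3.29% of all tested genes. Groups did not overlap for 3 members, with Cd74 and H2-DMb1 higher and Ctss lower in Nsd2 Vil-KO, beside 9.90% of all tested genes. The adjusted threshold was passed by 0% of tested genes in edgeR's quasi-likelihood test, where 482 genes had an unadjusted p below 0.05, by 4 genes in DESeq2, none of them a member, and by 0 genes in limma-voom. The median log2 difference of the members was 0.70, beside 0.0012 over all tested genes. Without Nsd2 f/f replicate 3 it was 0.21, beside 0.017. In the 4 libraries without Xist 4 members passed the criterion, H2-DMb1 and Ciita above 0 and Ctss and Ifi30 below it, where 11.0% of tested genes passed. With Xist as a covariate 2 members passed, Ctss and Ciita, where 7.82% of tested genes did.

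**Figure D3:**
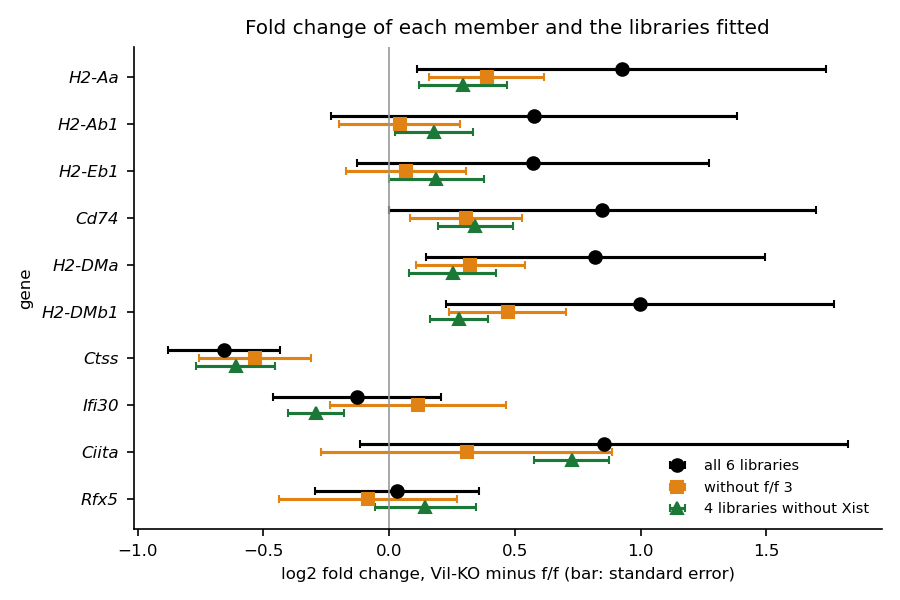
Log2 difference (Vil-KO minus f/f) of each gene with its standard error, in all 6 libraries (black), without Nsd2 f/f replicate 3 (orange) and in the 4 libraries without Xist (green). Bars of the chains, Cd74, H2-DM and Ciita shrink towards 0 and narrow without Nsd2 f/f replicate 3, from a median over the members of 0.70 to 0.21, while Ctss stays between -0.66 and -0.53.

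Between the 2 libraries that hold Xist, Nsd2 Vil-KO replicate 2 exceeded Nsd2 f/f replicate 3 by between 3.03 and 4.56 on the log2 scale for the chains, Cd74, H2-DM and Ciita. For Ctss the difference was -0.72, for Rfx5 -0.27 and for Ifi30 0.07. This is 1 library against 1 and was not tested.

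Levels can be compared between genes only per length. By median RPKM, the CPM divided by the kilobases of exon, the order was Cd74 (308), Ctss (230.1), Ifi30 (87.0), H2-Ab1 (84.0), H2-Eb1 (55.1), H2-Aa (34.9), H2-DMb1 (27.9), H2-DMa (8.54), Ciita (1.93) and Rfx5 (1.63). Over the 6 libraries only Ctss and Ifi30 among neighbours in this order had ranges that did not overlap, at 161 to 349 and 66.5 to 140.4 RPKM. Leaving out Nsd2 f/f replicate 3, H2-Eb1 also lay above H2-Aa, H2-DMb1 above H2-DMa and H2-DMa above Ciita in range. The ranges of the other neighbours overlapped in both sets of libraries. Within libraries the order held for some of these neighbours more than for others. H2-Ab1 lay above H2-Eb1 in 5 of 6 libraries and H2-Aa above H2-DMb1 in 6 of 6. Cd74 lay above Ctss in 4, Ifi30 above H2-Ab1 in 3 and Ciita above Rfx5 in 4.

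The class II chains and their partners spread more in Nsd2 f/f than in Nsd2 Vil-KO. The chains, Cd74, H2-DMa and H2-DMb1 spanned 10.3-fold to 18.6-fold among the 3 Nsd2 f/f libraries, and 96.9% to 98.3% of tested genes spanned less. Among the 3 Nsd2 Vil-KO libraries the same 6 genes spanned 1.25-fold to 1.52-fold, below the median gene's log2 range of 0.76. This difference in spread rests on Nsd2 f/f replicate 3 and was not tested.

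Other genes of the class II pathway, 36 listed and 32 tested, showed no call: 0 passed the criterion in either direction and 0 had an unadjusted p below 0.05 by edgeR, with 0 past the criterion by DESeq2 and by limma-voom. The median log2 difference was -0.10, with 14 genes above 0 and 18 below. Groups did not overlap for 1 of the 32, H2-DMb2, beside 9.90% of all tested genes. The list holds H2-Ea, H2-Eb2, H2-Oa and Pdcd1lg2, which did not pass the filter on low counts. Of 6 further endosomal proteases 0 passed and the median was 0.15, and of 7 further factors of the X and Y box complexes 0 passed and the median was 0.02. The 2 ubiquitin ligases that turn class II over, Marchf1 and Marchf8, gave a median of -0.58, and 5 costimulatory or inhibitory molecules a median of -1.60. Without Nsd2 f/f replicate 3, 4 of the pathway genes passed the criterion, all lower in Nsd2 Vil-KO: Cd80 (log2 difference -2.34, unadjusted p = 0.0330), Cd86 (-2.21, unadjusted p = 0.0498), Cd40 (-2.09, unadjusted p = 0.0387) and Ifng (-2.90, unadjusted p = 0.0440), each with adjusted p = 0.9998. In that fit 3.38% of tested genes passed in either direction and 2.33% in the lower one. The highest value of each was in Nsd2 f/f replicate 1, with 97 counts of Ifng against 0 to 15 elsewhere, 82 of Cd80 against 3 to 18, 102 of Cd86 against 0 to 33, and 100 of Cd40 against 2 to 27. In the same library 9 of 9 macrophage and 4 of 5 fibroblast markers were at their highest, and the fibroblast sum was 124 CPM against 4.36 to 38.5 CPM elsewhere. The part of such cells in these 4 differences was not tested. Without Nsd2 Vil-KO replicate 3 the endosomal protease Lgmn passed, higher in Nsd2 Vil-KO (log2 difference 1.52, SE 0.60, unadjusted p = 0.0431, adjusted p = 0.995 by edgeR). In that fit 515 of all tested genes passed. With the replicate block Cd80 passed, again lower in Nsd2 Vil-KO (-1.60, unadjusted p = 0.0406 by edgeR), where 303 of all tested genes did.

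Upstream of Ciita, 10 genes of interferon-gamma input were tested and 0 passed in all 6 libraries. In the 4 libraries without Xist 2 pathway genes passed, where 11.0% of tested genes did. Of these, Ifngr1 was higher in Nsd2 Vil-KO (log2 difference 0.31, SE 0.11, unadjusted p = 0.0247, adjusted p = 0.406 by edgeR), and the other is not reported here. Ifng, the cytokine, stood at 4.81, 0.532 and 0 CPM in Nsd2 f/f and at 0.731, 0 and 0.307 CPM in Nsd2 Vil-KO. Irf1, a transcription factor that binds the Ciita promoter, stood at 339, 248 and 123 CPM in Nsd2 f/f and at 275, 84.9 and 245 CPM in Nsd2 Vil-KO, and its log2 difference was -0.23 (SE 0.51, adjusted p = 0.996). It was -0.54 (SE 0.49) without Nsd2 f/f replicate 3 and -0.16 (SE 0.17) in the 4 libraries without Xist. Irf1 was lowest in Nsd2 Vil-KO replicate 2, where the chains were between -0.20 and 0.54 from the median of the libraries (log2), and second lowest in Nsd2 f/f replicate 3, where they were between -4.00 and -3.10. The receptor genes Ifngr1 and Ifngr2 and the kinases Jak1 and Jak2 lay within 0.69 of the median on the log2 scale in every library. Socs1, also on the list, stood at 67.5, 32.9 and 5.17 CPM in Nsd2 f/f and at 34.2, 14.2 and 71.2 CPM in Nsd2 Vil-KO. In Nsd2 f/f replicate 3 Socs1 was at -2.67 from the median (log2), Irf2 at 1.01 and Usf1 at -0.0037. Their part in the Ciita levels was not tested.

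Class I presentation genes, which answer to interferon as well, were lowest in Nsd2 f/f replicate 3 for 6 of 6 genes, at log2 distances from the median between -3.09 for Tap1 and -0.39 for B2m. The share of all tested genes that were lowest or highest in a given library was not computed, here or for the marker lists. H2-K1, a class I heavy chain, stood at 2373, 3531 and 1268 CPM in Nsd2 f/f and at 2457, 3282 and 2062 CPM in Nsd2 Vil-KO. Tap1, the peptide transporter subunit that lies among the class II genes, stood at 331, 359 and 36.4 CPM in Nsd2 f/f and at 292, 143 and 347 CPM in Nsd2 Vil-KO. Cd74 counts per H2-K1 count were 0.199, 0.141 and 0.0212 in Nsd2 f/f and 0.279, 0.176 and 0.259 in Nsd2 Vil-KO. Nsd2 f/f replicate 3 was thus the low point relative to H2-K1. Relative to Tap1 this held less, since Cd74 counts per Tap1 count were 1.43, 1.39 and 0.740 in Nsd2 f/f and 2.35, 4.02 and 1.54 in Nsd2 Vil-KO. H2-Eb1 counts per Tap1 count were 0.386, 0.289 and 0.340 in Nsd2 f/f and 0.517, 0.709 and 0.318 in Nsd2 Vil-KO, with Nsd2 f/f replicate 3 inside the range of its group. Of the 6 class I genes 0 passed the criterion, with a median log2 difference of 0.11 in all libraries and -0.32 without Nsd2 f/f replicate 3.

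**Figure D4:**
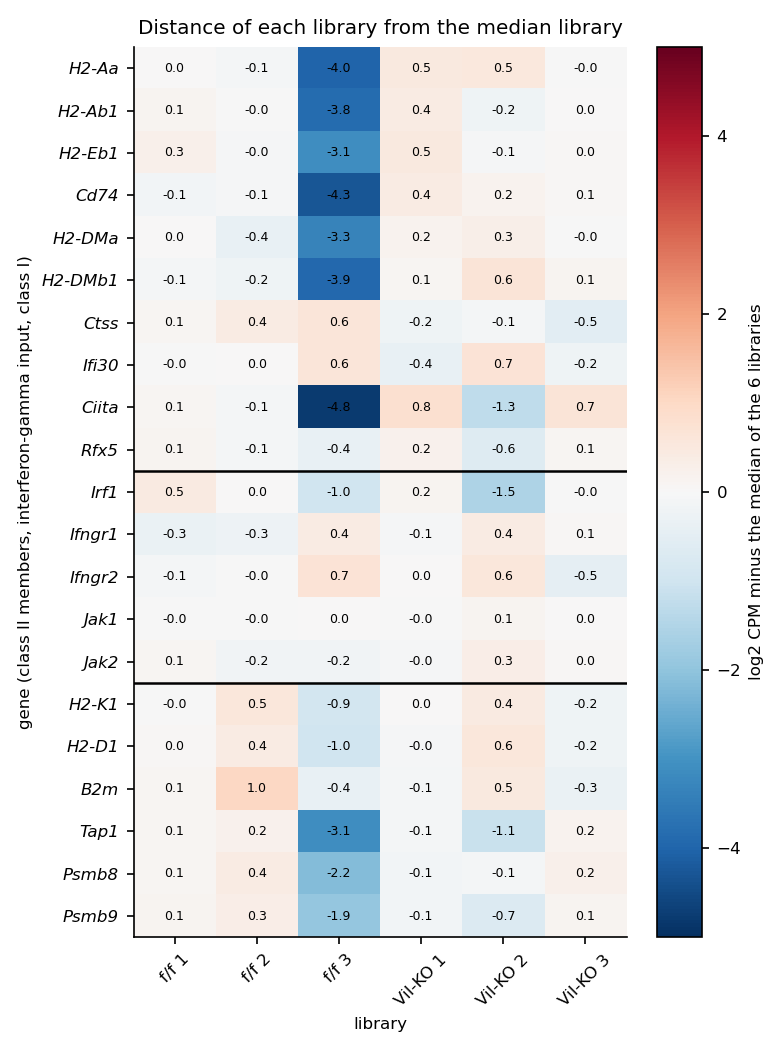
Distance of each library from the median of the 6 libraries (log2 CPM) for the 10 class II genes, the class I genes and 5 of the 10 genes of interferon-gamma input. These 5 are Irf1, Ifngr1, Ifngr2, Jak1 and Jak2, and the figure leaves out Socs1, Irf2 and Ifng among others. Cells of Nsd2 f/f replicate 3 reach -4.8 for Ciita and -3.1 for Tap1, and Nsd2 Vil-KO replicate 2 shows low Irf1 (-1.5) beside class II chains near 0.

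The low values in Nsd2 f/f replicate 3 did not extend to every gene of the class II region. Of 13 tested genes between 34092340 and 34344645 on chromosome 17, Brd2 was at -0.19 and H2-DMb2 at 0.21 from the median of the libraries (log2), next to H2-DMa at -3.33 and H2-DMb1 at -3.92. Tap2 (-1.39), Psmb9 (-1.93) and Psmb8 (-2.16) lay between. Genes that are interleaved on the chromosome therefore differed in how far they departed in that library.

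Class II transcripts in an epithelial preparation can come from epithelium or from leukocytes within it, so the markers of other cells were set beside them. The 6 chain, Cd74 and H2-DM genes summed to 1041, 1006 and 68.1 CPM in Nsd2 f/f and to 1390.3, 1168 and 1074 CPM in Nsd2 Vil-KO. The 8 B cell markers summed to 7.88 to 23.1 CPM in Nsd2 f/f and to 1.44 to 15.1 CPM in Nsd2 Vil-KO, with 13.8 CPM in Nsd2 f/f replicate 3, where 0 of 8 were at 0. In Nsd2 Vil-KO replicate 2 all 8 were at their lowest and 3 of 8 were at 0. The part of B cells in the class II levels was not tested.

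The 9 macrophage and monocyte markers summed to 9.53 to 119 CPM in Nsd2 f/f and to 16.1 to 45.5 CPM in Nsd2 Vil-KO, and 7 of 9 were at their lowest in Nsd2 f/f replicate 3, with Adgre1 at 0. The 8 dendritic cell markers summed to 1.78 to 10.5 CPM in Nsd2 f/f and to 2.50 to 5.66 CPM in Nsd2 Vil-KO. Flt3, Xcr1 and Cd209a were at 0 in Nsd2 f/f replicate 3, but Xcr1 and Cd209a were at 0 in other libraries too. In that library 2 of 8 were lower than in every other library, while Zbtb46 was at its highest (0.566 CPM). In Nsd2 Vil-KO replicate 2, 4 of 8 were at 0. The summed macrophage markers and the summed dendritic cell markers were thus lowest, like class II, in Nsd2 f/f replicate 3. The part of these cells in its low class II level was not tested. Ptprc, the leukocyte antigen CD45, stood at 5.74 CPM in Nsd2 f/f replicate 3 and at 5.71 CPM in Nsd2 Vil-KO replicate 2, the libraries with class II sums of 68.1 and 1168 CPM. Cd74 counts per Ptprc count were 15.4, 26.1 and 4.69 in Nsd2 f/f and 37.2, 100.9 and 61.6 in Nsd2 Vil-KO, so the Vil-KO libraries carried more Cd74 per Ptprc in 3 of 3. In bulk RNA, fewer cells of a type and less RNA per cell cannot be told apart.

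For Ctss, which macrophages also express, the macrophage markers had a median log2 difference of -1.22 in all 6 libraries, where 0 of 9 passed the criterion. In the 4 libraries without Xist, Csf1r (-1.55), C1qa (-1.53), C1qb (-1.42) and C1qc (-1.34) passed, where 11.0% of tested genes did. Their unadjusted p by edgeR lay between 0.00673 and 0.0317, and their adjusted p between 0.364 and 0.423. The other listed macrophage markers did not pass there. The same genes passed without Nsd2 f/f replicate 3, where the median of the list was -1.75. In Nsd2 f/f replicate 3 Ctss was at its highest (474 CPM) and the macrophage sum at its lowest (9.53 CPM). The part of macrophages in the Ctss difference was not tested. The neutrophil markers summed to 205 to 836 CPM in Nsd2 f/f and to 198 to 2340 CPM in Nsd2 Vil-KO. The highest sum was in Nsd2 Vil-KO replicate 2, mostly from Ly6g (1355 CPM), S100a8 (574 CPM) and S100a9 (405 CPM). Of the other neutrophil markers, Csf3r was at its lowest in that library (0.666 CPM). Cxcr2 stood at 5.10 CPM there and was highest in Nsd2 f/f replicate 1 (12.5 CPM). The 9 markers of T cells and innate lymphocytes summed to 10.7 to 34.5 CPM in Nsd2 f/f and to 17.4 to 40.3 CPM in Nsd2 Vil-KO, with 6 of 9 lowest in Nsd2 f/f replicate 3.

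**Figure D5:**
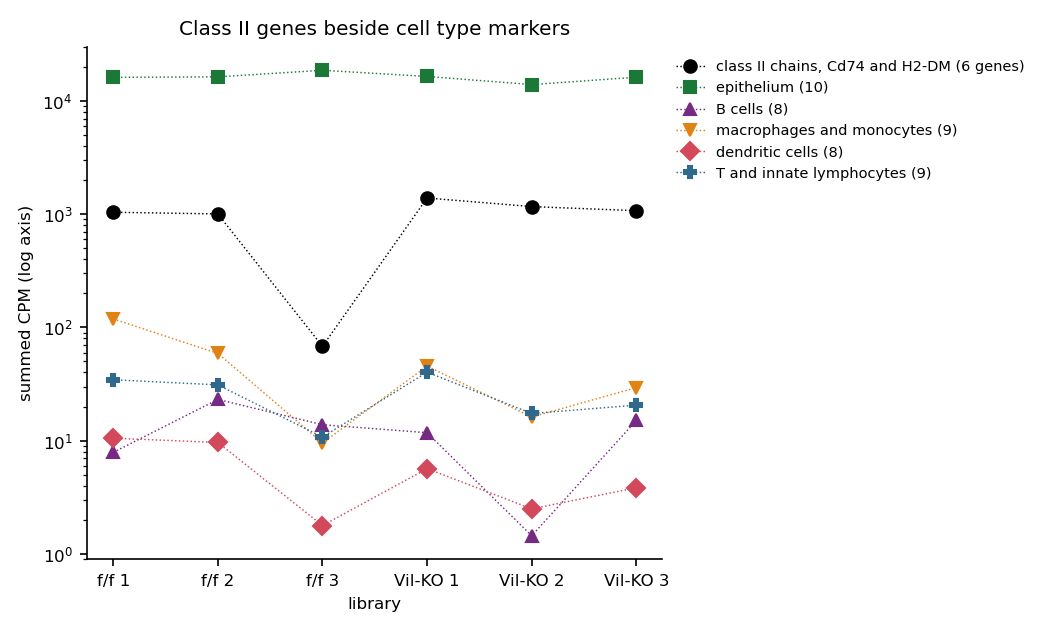
Summed CPM (log axis) of the 6 class II genes and of marker lists of the epithelium, B cells, macrophages and monocytes, dendritic cells, and T cells and innate lymphocytes in each library. The class II sum is 68.1 CPM in Nsd2 f/f replicate 3 and 1006 to 1390.3 CPM elsewhere, while the epithelial sum stays between 13974 and 18693 CPM.

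The genes whose pattern over the 6 libraries was most like that of H2-Aa, H2-Ab1, H2-Eb1 and Cd74 were ranked by the root mean square difference of centred log2 CPM, over the 10553 tested genes whose average reached 5 CPM. Plet1 was closest at 0.198, and stood at 261, 283 and 26.7 CPM in Nsd2 f/f and at 448, 329 and 371 CPM in Nsd2 Vil-KO. Syne4 (0.279), H2-T10 (0.322), Osmr (0.336), Icam1 (0.343), C4b (0.346), 2310069B03Rik (0.377), Rbm24 (0.381), Psat1 (0.387) and Grk3 (0.418) followed. Icam1 encodes an adhesion ligand for leukocytes, C4b a complement component and Osmr a receptor for oncostatin M. All 10 were lowest in Nsd2 f/f replicate 3, at no more than 26.7 CPM, and their likeness rests on that library. Among the members outside the profile H2-DMa (0.270) and H2-DMb1 (0.284) were as near as these genes, Ciita was at 0.704, and Rfx5, Ifi30 and Ctss were at 1.37 to 1.75.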

How the data were processed

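RNA-seq libraries of DSS-treated colonic IECs were grouped by their labels into 3 Nsd2 f/f and 3 Nsd2 Vil-KO. The authors deposited whole-number read counts per Ensembl gene, without normalisation, after polyA selection, trimming with Cutadapt and Trimmomatic and alignment to GRCm38 with HISAT2. How reads were counted, and whether by strand, is not given in the sources used here (labels name a TruSeq kit, methods a directional NEBNext kit), so copies and overlapping genes can share reads. Symbols, positions and exon lengths came from GENCODE vM21, in which 99.5% of genes were found, and promoter windows from RefSeq.

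Counts were tested in R 4.3.3 with edgeR 4.0.16 (TMM, filterByExpr by genotype, robust quasi-likelihood test, Benjamini-Hochberg adjustment over 14650 genes, no covariate). The test was tried on simulated counts in which no library stood apart, so that trial cannot show how the test behaves with libraries that do. The criterion was a fold change above 1.2 with an unadjusted p below 0.05, and adjusted p below 0.05 was counted too. Exact permutation tests over libraries used log2 CPM. Log2 distances used a prior count of 2. The 13 alternatives were other scalings, filters and models (DESeq2 1.42.0, limma 3.58.1), other fold limits, a replicate block, Xist as covariate or Xist libraries left out, and each library left out, and 1 more was added after the data were seen (deviances without bias adjustment). Libraries with over 100 Xist counts were called Xist-bearing. Members, lists and markers were chosen with earlier results of these data known. The text names all members, Irf1, Ifng, pathway genes past the criterion, the 10 closest genes by pattern, and class I genes. Other pathway and neighbouring genes, and single markers, were named after their values were seen. A gene that the rule names is not reported here. Figures were drawn with matplotlib 3.10.9.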

Additional observations from a re-analysis of the deposited data

How the results depend on the processing

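For the 10 members, 109 values came from alternatives that kept all libraries or dropped those with Xist: 104 kept their direction and side of the criterion, 4 passed it newly, 1 (Ctss with the replicate block, -0.65, unadjusted p = 0.0680) no longer passed, and 0 changed sign. Leaving out 1 library at a time, Ifi30 ranged from -0.53 to 0.11 and Rfx5 from -0.13 to 0.25, so both changed sign, members past the criterion ranged from 0 to 1, their median from 0.21 to 1.12, other pathway genes past it from 0 to 4 and all tested genes past it from 323 to 769. All tested genes past the criterion, 482 as reported, numbered 861 with no filter, 1440 with limma-voom, 303 with the replicate block, 1145 with Xist as covariate, 1646 in the 4 libraries without Xist and 279 at a fold limit of 2. Members past it numbered 0 with the block, 2 with the Xist covariate, 4 in the libraries without Xist and 0 at a fold limit of 2, and other pathway genes numbered 1, 1, 2 and 0. With at least 10 counts in each library Ciita could not be tested. The causes were not tested, other than the fewer samples and the other filters by construction.

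The deviations of same-numbered libraries had correlations across genes of 0.32, -0.35 and -0.11 for numbers 1, 2 and 3. Those of differently numbered libraries lay between -0.36 and 0.31. With 3 libraries in each group these correlations cannot show whether the numbers pair libraries. Depth limits Ciita in Nsd2 f/f replicate 3, at 7 counts, and the dendritic cell markers, many of which hold 3 counts or fewer.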
